A study of Danio rerio with 12 samples.

Results

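Gamma-M crystallins are a family of lens proteins, and the 10 genes described here were picked from that family because their signal at 24 h was far lower in embryos given PCSK7 and p53 morpholinos than in control embryos. They are crygm2d16, crygmxl2, crygm2d15, crygm2d3, crygm2d17, crygm2d12, crygm2d4, crygm2d20, crygm2b and crygm2c, out of 14016 genes named on the array. Their RefSeq identifiers were on 12 of the 43603 non-control probes, 2 each for crygm2d15 and crygm2d3 and 1 for every other gene. In 11 of these 12, all 3 arrays of some group gave signal well above background; these are called kept probes, and the rest of the array was filtered in the same way. The exception, 1 of the crygm2d15 probes, was above background on 0 arrays of every group. Because the 24 h contrast chose the members, their 24 h values and the time courses that use them are a description with no test.

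Crystallins fill the fibre cells of the vertebrate lens, and their close packing gives the lens its transparency and refractive power. The gamma-M crystallins are methionine-rich proteins known from fish lenses, where they are among the main proteins of the fibre cells. In zebrafish the lens forms from the head surface ectoderm, and its first fibre cells differentiate during the first day of development.

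The data are 12 one-colour Agilent arrays, each carrying the Cy3-labelled RNA of 18 to 35 pooled whole embryos of the AB strain, a wild-type zebrafish line. Embryos received a control morpholino or PCSK7 plus p53 morpholinos into the yolk sac at the 1 to 4 cell stage (0.25 to 1.0 pmol of each), were kept at 28.5 °C and were collected at 6 h or 24 h after fertilization, with 3 arrays in each of the 4 groups. A morpholino is a synthetic antisense molecule that pairs with a chosen transcript and stops its translation or splicing. PCSK7 encodes a proprotein convertase, an enzyme that cleaves precursor proteins, and p53 morpholinos are commonly added to reduce cell death that morpholinos cause off target. No group received either of these 2 morpholinos alone, so each comparison holds the effect of both. No probe was assigned to pcsk7 by symbol, so the level of the targeted transcript was not analysed here. The labels do not state whether replicate pools were separate clutches, and p-values therefore measure only the spread between pools, which may be technical.

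Each array was scaled to the 75th percentile of its own signal, and values below are percent of that signal unless a log2 difference is named. That percentile lay between 404.1 and 513.3 in control arrays at 6 h, 696.5 and 994.3 in control arrays at 24 h, 634.7 and 731.1 in morpholino arrays at 6 h, and 1023.1 and 1088.6 in morpholino arrays at 24 h. Between 67.6% and 82.3% of probes per array were well above background, and 0 were saturated. The control arrays lay on 3 slides read in an earlier scan session, and the morpholino arrays of each time on a slide of their own read in a later session. The version of the extraction software and the genome build of the array annotation were split in the same way. Morpholino, slide, scan session and software version therefore cannot be told apart in any 6 h or 24 h comparison. The number of arrays limits the precision of every value. In whole embryos, fewer lens cells and less crystallin RNA per cell cannot be told apart. Paralogs of the family are near identical in sequence, so a probe may also read transcripts of its neighbours, and values are given per probe.

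In a RefSeq gene table of assembly GRCz12tu, 32 of 35 gamma-M crystallin genes lie on the same chromosome within a run of 35 coding genes, with 3 other coding genes among them. Of the 10 members, 9 are in that run. The exception is crygmxl2, which lies elsewhere with crygmx as its neighbour.

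At 24 h all 10 members were well above background in control embryos, and the 8 of them that were also above it in morpholino embryos stood about 8 to 9 times lower there. The brightest probe, for crygm2d3, read 342, 256 and 225% of the array's 75th percentile in the 3 control arrays and 18.3, 37.8 and 50.1% in the 3 morpholino arrays. Its second probe read 184, 139 and 127% in control arrays and 10.5, 21.6 and 26% in morpholino arrays. In both probes the highest morpholino array stayed far below the lowest control array. The log2 differences were -3.05 (SE 0.38) and -3.03 (SE 0.55), which are 8.29-fold and 8.18-fold lower.

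The remaining crygm2d members, paralogs of the same gene cluster that encode near-identical structural proteins of lens fibres, followed the same course at 24 h. crygm2d17 read 263, 193 and 162% in control arrays and 14.5, 28.4 and 36.4% in morpholino arrays. crygm2d12 read 232, 178 and 167% against 14.6, 27 and 32.2%. The groups did not overlap for either gene, and both were 3.03 log2 units lower (log2 difference -3.03; SE 0.37 for crygm2d17 and 0.29 for crygm2d12). crygm2d4 read 194, 147 and 124% in control arrays and 11, 21.3 and 30.4% in morpholino arrays, a log2 difference of -2.98 (SE 0.38). crygm2d20 read 165, 127 and 111% against 9.95, 18.6 and 25.8%, also -2.98 (SE 0.45). For both genes every morpholino array was below every control array.

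crygm2d15 and crygm2d16 gave weaker signals but differences of the same size. The kept crygm2d15 probe read 64.7, 50.8 and 41.4% in control arrays and 3.23, 7.53 and 9.3% in morpholino arrays (log2 difference -3.08, SE 0.57). crygm2d16 read 36, 28.3 and 21.6% against 1.41, 3.63 and 5.41%, the lowest log2 difference of the 9 probes that were well above background on all 24 h arrays (-3.21, SE 0.43, 9.27-fold lower). The groups did not overlap in either case.

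crygmxl2, which lies outside the cluster, read 29.2, 20.5 and 19.1% in control arrays and 1.67, 2.71 and 3.75% in morpholino arrays at 24 h. Its log2 difference of -3.13 (SE 0.27, 8.77-fold lower) was within the range of the crygm2d members, and the groups were apart. crygm2b read 5.4, 3.52 and 4.04% in control arrays and was not well above background on any morpholino array, where it measured 0.178, 0.38 and 0.704%. crygm2c read 7.65, 5.6 and 4.49% in control arrays and 0.468, 0.397 and 0.926%, again not well above background, in morpholino arrays. Their morpholino signals give only a bound, so crygm2b was at least 5.95-fold lower and crygm2c at least 7.45-fold lower. A bound sets the bright group's mean against the higher, per array, of the probe's own signal and the dimmest signal on that array that still counted as above background.

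Over the 9 probes above background on all 24 h arrays, log2 differences ran from -3.21 to -2.98, and the folds from 7.88 to 9.27 lower. The groups did not overlap for 11 of the 11 kept probes, where all morpholino arrays lay below all control arrays for 33.4% of kept probes on the array. A log2 difference of -1 or lower was seen for 3.99% of them. Since this contrast chose the members, nothing is read from those shares. With another background correction (normexp), the median of the 11 log2 differences went from -3.05 to -2.57, and the dimmer probes moved most, crygm2d16 to -1.89, crygmxl2 to -1.84, crygm2c to -0.94 and crygm2b to -0.92. Among family probes above background on all 24 h arrays, crygm2d4 and crygm2d20 (each -2.98) were the members with the smallest difference, and crygm2d9 (-2.96) and crygm2d14 (-2.93) the nearest genes that are not members. crygm2d8 and crygm2d18, above background on 2 of the 3 morpholino arrays, are not members either.

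**Figure D1:**
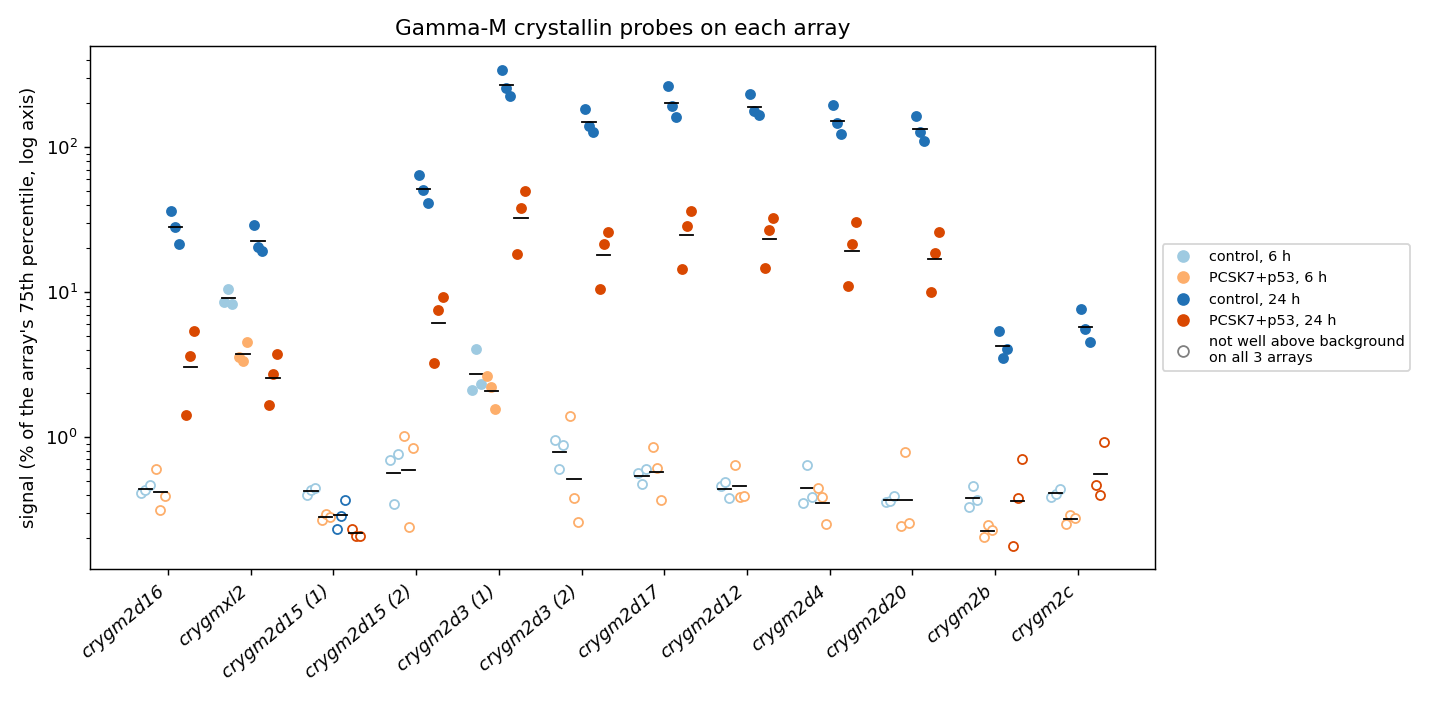
Signal of the 12 gamma-M crystallin member probes on each array, as percent of that array's 75th percentile on a log axis, with 3 arrays per group and a line at the geometric mean. Open symbols mark groups not well above background on all 3 arrays. At 24 h the control arrays of the 11 kept probes lie above the morpholino arrays, the probe marked crygm2d15 (1) is at background throughout, and most probes are at background at 6 h.

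At 6 h, during gastrulation and before a lens exists, most members were not detected in either group. Of the 11 kept probes, 9 were well above background on 0 control arrays at 6 h and on 3 at 24 h, a course followed by 13.8% of kept probes on the array. As these 9 were chosen and kept through the 24 h arrays, nothing is read from that share. In the morpholino group, 8 of the 11 were above background on 0 arrays at 6 h. For the 9 probes silent in control embryos at 6 h, the 24 h level over the 6 h level is a bound that ran from 2.82-fold for crygm2b to 134-fold for crygm2d17. crygm2d12 was at least 126-fold higher, crygm2d4 at least 101-fold, crygm2d20 at least 88.1-fold, crygm2d15 at least 34.2-fold and crygm2d16 at least 18.6-fold. These bounds rest on Agilent's own background correction. With normexp the log2 differences from 6 h to 24 h in control embryos were -0.09 for crygm2b and -0.01 for crygm2c. They were 1.31 for crygm2d16, 2.34 for crygm2d15 and 3.46 to 4.04 for crygm2d20, crygm2d4, crygm2d17 and crygm2d12. Normexp here added an offset of 50 to every signal. Before scaling, Agilent's signal in control arrays went from 1.51 to 1.88 at 6 h to 28.1 to 53.7 at 24 h for crygm2b. For crygm2c it went from 1.64 to 2.26 to 31.3 to 76.1. With an offset of that size normexp cannot show whether these dim probes rose. Morpholino embryos were also brighter at 24 h, where crygm2d17 was at least 25.6-fold and crygm2d12 at least 24.1-fold higher at 24 h than at 6 h, and crygm2d15 at least 5.98-fold and crygm2d16 at least 3.13-fold. All 6 h morpholino arrays lay on a different slide from the 24 h ones, so time and slide cannot be told apart there.

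Only 2 probes were well above background on every 6 h array. The brighter crygm2d3 probe read 2.12, 4.02 and 2.31% in control arrays and 2.62, 2.23 and 1.55% in morpholino arrays at 6 h. These ranges overlap (log2 difference -0.38, SE 0.38, limma adjusted p = 0.414). That probe then differed by 6.64 log2 units between 6 h and 24 h in control embryos and by 3.97 in morpholino embryos (4.26 in control embryos with normexp). The other crygm2d3 probe was above background on 0 control arrays and 1 morpholino array at 6 h. Among the members crygmxl2 was the exception at 6 h: it read 8.55, 10.5 and 8.33% in control arrays and 3.56, 3.32 and 4.49% in morpholino arrays. It fell by 1.27 on the log2 scale (SE 0.27, 2.42-fold lower, limma adjusted p = 0.00244), and the groups do not overlap. A fall at 6 h was not particular to crygmxl2. Of the 13 other kept gamma-M probes, 2 fell, crygm2a (-0.83, limma adjusted p = 0.0142) and crygm2d21 (-0.64, adjusted p = 0.00849). Another 2 rose, crygmx (0.92, adjusted p = 0.0378) and crygmxl1, and 9 did not pass. Of these 4, crygm2d21 was above background on only 2 arrays of each 6 h group. Before scaling, its signal was 7.33 to 8.25 in control and 6.37 to 8.8 in morpholino arrays. crygmx was above background on only 1 control array and was at least 1.7-fold higher. Of 53 lens and retina genes, 25 fell and 12 rose at 6 h, where 31.2% of kept probes fell and 28.4% rose. Several of those counted as lower were above background on 0 arrays of both 6 h groups, among them cryba1b (-0.64), pax6a (-0.60), lhx2b (-0.55) and rx3 (-1.65). The same held for lim2.1 (0.89) among those counted as higher. For such genes the 6 h call is not read as a change. By this test 1 of 11 kept member probes (9.09%) passed at 6 h, where 59.7% of kept probes on the array passed in either direction and 31.2% were lower. As 9 of the 11 were kept through their 24 h signal and were at background in control arrays at 6 h, nothing is read from that count or from its distance to the share on the array. At an unadjusted p under 0.05 the count was also 1. It was 2 without replicate 1 of the morpholino arrays, 3 in a fit to the 6 h arrays alone and 9 with normexp. The normexp offset of 50 is larger than any 6 h member signal before scaling (42.7 at most), so that count of 9 is not read as a change of the members. crygm2b (adjusted p = 0.126) and crygm2c (adjusted p = 0.0957) measured 0.59 to 0.75 log2 units lower at 6 h (-0.75 and -0.59), but were not well above background on any array at that time.

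The time course of crygmxl2 differed in form from that of the kept crygm2d member probes. Its control level was 1.31 log2 units higher at 24 h than at 6 h (0.48 with normexp), from 8.33 to 10.5% up to 19.1 to 29.2%. In morpholino embryos it went from 3.32 to 4.49% at 6 h to 1.67 to 3.75% at 24 h, a log2 difference of -0.55 between ranges that overlap. Its 4 groups thus stood in the order control at 24 h, control at 6 h, morpholinos at 6 h and morpholinos at 24 h, with the last 2 overlapping. For the crygm2d probes the order was control at 24 h, morpholinos at 24 h, and then both 6 h groups, which overlap. Over the 12 arrays the 8 kept crygm2d probes were correlated with one another at r = 0.95 or above, and crygmxl2 with them at r = 0.41 to 0.57. These correlations describe probes on the same arrays that may share transcripts.

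The members varied together between replicate pools. Replicate 1 was the highest control array at 24 h for 11 of 11 kept probes (33.8% of kept probes on the array), and replicate 1 was the lowest morpholino array for 10 of 11 (38.9%). Replicate 3 was the highest morpholino array for 11 of 11 (31.1%). Since these probes may read the same transcripts, they are not independent of one another. For the 9 probes above background on all 24 h arrays, the highest control array was 1.39 to 1.67 times the lowest. Within the morpholino group it was 2.21 to 3.84 times for the same probes. The median SD of the member probes was 0.32 log2 units in control arrays and 0.70 in morpholino arrays at 24 h, where the median probe above background had 0.10 in both groups and the 95th percentile was 0.30 and 0.33. Among the 24 h arrays the 8 crygm2d probes were correlated with one another at r = 0.992 or above. The control array with the lowest 75th-percentile signal, replicate 3 at 696.5, was the lowest of its group for 10 of 11 member probes (35.7% of kept probes on the array), while replicate 1 of the morpholino group, with the lowest member values, had the highest percentile of its group at 1088.6. The part that scaling or the number of lens cells per pool played in this spread was not tested.

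**Figure D2:**
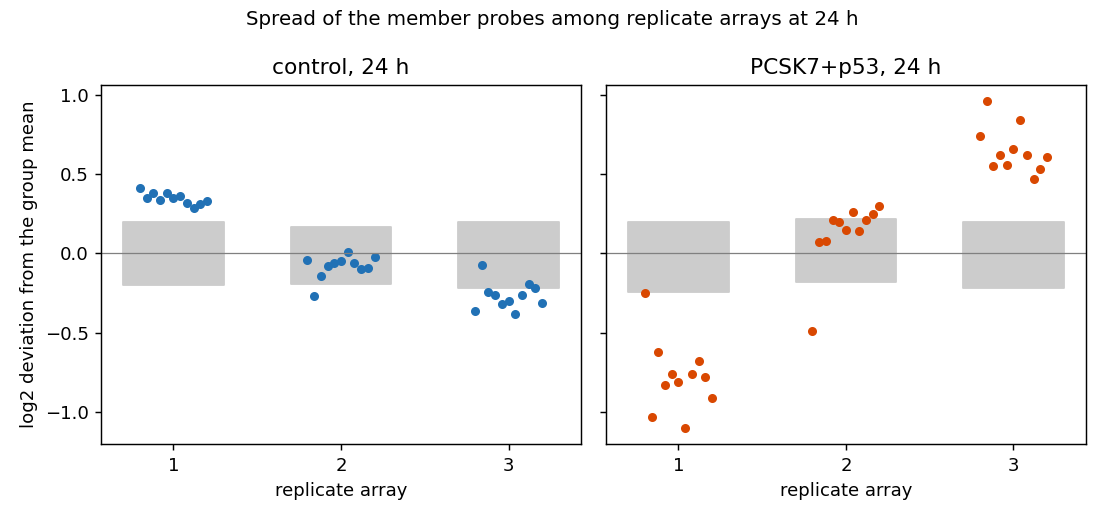
Log2 deviation of each of the 11 kept member probes from its group mean on the 3 replicate arrays of each 24 h group; the grey boxes span the 5th to 95th percentile of all probes above background in that group. Member probes sit together, near 0.35 above the mean on control replicate 1 and near 0.78 below it on morpholino replicate 1 (median -0.78).

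The rest of the gamma-M family, 21 genes on 28 probes, was tested at 24 h because these genes are not members, although their probes may read member transcripts. Of the 28 probes, 13 were kept. At 24 h, 10 of the 13 fell, 0 rose and 3 did not pass, with a median log2 difference of -2.82, where 25.1% of all kept probes fell, 20.6% rose and the median was -0.04. By limma's unadjusted p under 0.05, 0 rose as well, and 1 rose without replicate 3 of the morpholino arrays. Without the filter on dim probes 18 fell. Most of the probes that the filter left out, such as those of crygm1, crygm2d6 and crygm7, were above background on 0 arrays of every group. The larger count is therefore not read as more genes that fell. crygm2d8 and both crygm2d18 probes were kept only through the 24 h control arrays, where they are high, so the filter itself favoured a fall for them. As any of the 13 may also read member transcripts, the count and its p-values are not independent of the choice of the members. crygm2d8 read 9.51, 7.83 and 6.57% in control arrays and 0.32, 0.996 and 1.16% in morpholino arrays, 2 of which were above background, and was at least 8.31-fold lower (log2 difference -3.46, limma adjusted p = 9.34e-05). Both crygm2d18 probes were lower, at least 9.66-fold (-3.51, SE 0.70, adjusted p = 0.00258) and at least 8.86-fold (-3.15, SE 0.39, adjusted p = 0.000155). crygm2d9 read 193, 157 and 132% against 12, 23.3 and 30.6% (adjusted p = 0.000394), and crygm2d14 read 270, 212 and 180% against 16.2, 33.9 and 42.3% (adjusted p = 0.000122). At 24 h these 4 genes repeat the member pattern, with replicate 1 again the lowest morpholino array. At 6 h the crygm2d18 probes disagreed (1.72 and -0.60, limma adjusted p = 0.0563 and 0.208). They were above background on 0 control arrays and on 1 and 0 morpholino arrays at that time. With normexp crygm2d8 gave -1.36 and the crygm2d18 probes -1.79 and -1.61, all still past the threshold.

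Other probes of the family showed smaller differences or another course. crygmx, the neighbour of crygmxl2, read 9.62, 7.52 and 4.81% in control arrays and 1.41, 2.42 and 3.41% in morpholino arrays at 24 h, a log2 difference of -1.63 (SE 0.34, limma adjusted p = 0.00314; -0.82 with normexp), with the groups apart and replicate 1 again the highest control and the lowest morpholino array. crygm4 read 3.19, 2.38 and 3.33% against 2.82, 2.59 and 3.01% (-0.07, adjusted p = 0.807; 0.01 with quantile normalization), and crygm2d21 read 2.26, 2.27 and 1.92% against 1.6, 1.59 and 1.74% (-0.38, adjusted p = 0.0933). crygmxl1 had the reverse time course. It read 85, 76.7 and 75.3% in control arrays and 155, 182 and 165% in morpholino arrays at 6 h, and was not well above background on any 24 h array. It rose at 6 h by 1.08 log2 units (SE 0.30, limma adjusted p = 0.011), and from 6 h to 24 h it was at least 79.3-fold lower in control embryos. crygm2a, crygmx, crygm4, crygm2d21 and crygmxl1 were named after their values were seen.

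**Figure D3:**
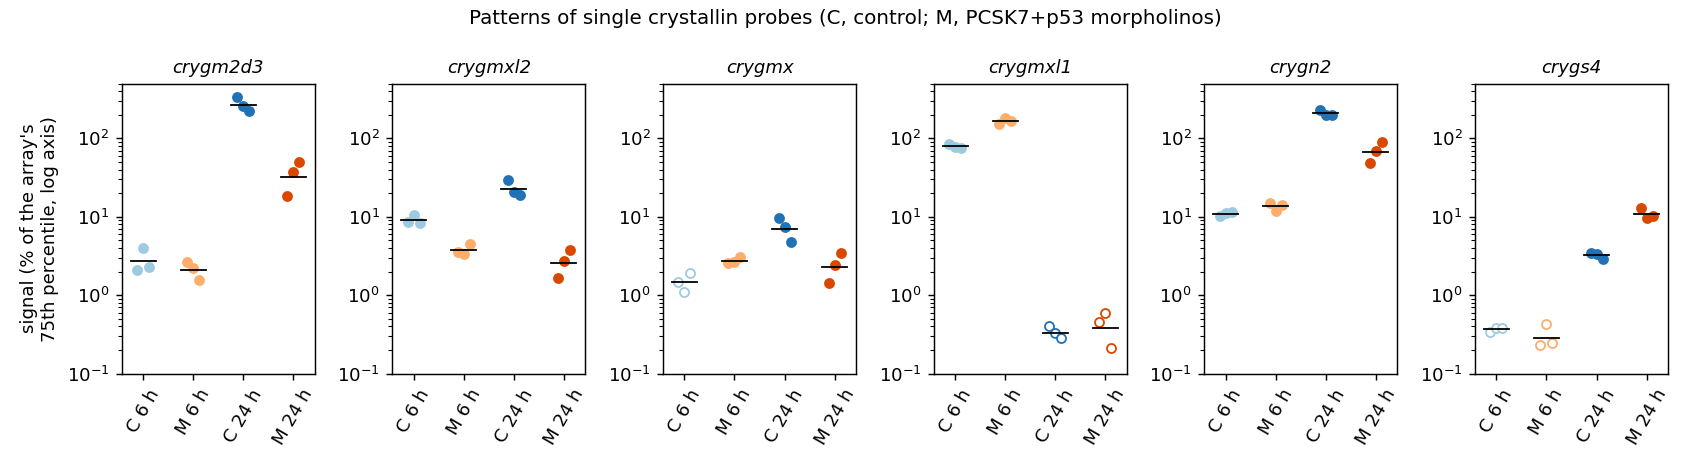
Signal of 6 crystallin probes on each array (percent of the array's 75th percentile, log axis; C, control; M, PCSK7 plus p53 morpholinos; lines, geometric means; open symbols, not well above background on all 3 arrays). crygm2d3 and crygmxl2 are lower with morpholinos at 24 h, crygmxl1 is on at 6 h and at background at 24 h, and crygs4 is higher with morpholinos at 24 h.

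Genes of 6 lens and retina lists were compared in the same fit, to place the gamma-M values beside other genes of the eye. A gene was represented by its brightest kept probe, which gave 53 of 64 genes. Of these, 16 rose, 17 fell and 20 did not pass at 24 h, with a median of 0.10, where 20.6% of all kept probes rose and 25.1% fell. No test compared these counts with those shares. Only 10 rose without replicate 3 of the control arrays, and 10 without replicate 3 of the morpholino arrays. In control embryos 43 rose, 9 fell and 1 did not pass from 6 h to 24 h, where 45.5% of all kept probes rose and 44.6% fell (90.1% in either direction), and 44 of the 53 were higher at 24 h on each of the 3 control slides.

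The beta crystallins are structural proteins of the same fibre cells. Of 11 measured genes, 8 fell, 0 rose (0 by limma's unadjusted p under 0.05) and 3 did not pass at 24 h, with a median of -0.95. Over all kept probes 25.1% fell and 20.6% rose. cryba1l2 was among the 3 by its brightest probe (-0.14), while its other kept probes gave -1.56 and -1.32 and passed. cryba1l1 read 360, 287 and 297% in control arrays and 73.9, 96.1 and 115% in morpholino arrays (-1.74, SE 0.18, limma adjusted p = 6.02e-05). crybb1 read 182, 152 and 153% against 37.7, 59.6 and 67.4% (-1.60, adjusted p = 0.0037). cryba1b read 477, 388 and 409% against 102, 170 and 200% (-1.48, adjusted p = 0.000319). In these 3 genes too, replicate 1 was the lowest morpholino array.

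The gamma-N and gamma-S crystallins, which in vertebrates are relatives of the gamma-M proteins, went both ways, 3 up and 3 down with a median of 0.11. Over all kept probes 20.6% rose and 25.1% fell. crygn2 read 229, 199 and 200% in control arrays and 47.9, 69.4 and 89.9% in morpholino arrays (-1.64, SE 0.19, limma adjusted p = 0.000112). crygs3 read 17.9, 26.3 and 19.9% against 8.03, 7.68 and 6.82% (-1.49, adjusted p = 0.000713). crygs4 was higher, with 3.5, 3.34 and 2.9% in control arrays and 13.1, 9.62 and 10.3% in morpholino arrays (1.75, SE 0.22, adjusted p = 0.000156; 0.67 with normexp), and its groups do not overlap. Of 3 alpha crystallin genes, small heat shock proteins of the lens, only cryabb was measured. It was above background on 2 control arrays (1.58, 1.49 and 0.587%) and on 3 morpholino arrays (2, 2.06 and 3.26%). It was at least 1.66-fold higher with morpholinos (limma adjusted p = 0.0212), but its log2 difference turned to -0.05 with a background correction by normexp. cryabb was kept only through the 24 h morpholino arrays, where it is high, so the filter itself favoured a rise for it.

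The list called lens membrane and cytoskeleton genes gave 5 lower, 3 higher and 6 not passing of 14, with a median of -0.35. Over all kept probes 25.1% fell and 20.6% rose. The list also holds lens genes of other kinds. The 5 lower were mipa, lim2.1, lim2.3, lim2.4 and bfsp1. The 3 higher were grifin, dnase1l1l and caprin2 (0.57, limma adjusted p = 0.00123), which are not membrane or cytoskeleton genes. mipb did not pass by its brightest probe (0.12), while its other kept probe gave -0.91. mipa, a water channel of fibre cells, read 13.9, 12 and 9.49% in control arrays and 4.37, 6.47 and 7.7% in morpholino arrays (-0.95, SE 0.22, adjusted p = 0.00576). lim2.4, of a fibre membrane protein family, read 25.2, 19.6 and 20% against 7.28, 10.1 and 14.6% (-1.07, adjusted p = 0.0463; 0.141 with quantile normalization). grifin, a galectin-related lens protein, measured 1.71, 0.715 and 0.782% against 2.22, 1.42 and 2.15%, and its log2 difference of 0.94 (limma adjusted p = 0.0366) turned to -0.05 with normexp. It was above background on only 1 control array, and the groups overlap. The same limits held for dnase1l1l, another of the 3 counted as higher, whose difference of 0.44 turned to -0.15 with normexp. dnase1l1l was also kept only through the 24 h morpholino arrays, where it is high, so the filter itself favoured a rise for it.

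Of 10 lens transcription factors, 4 rose, 1 fell and 5 did not pass at 24 h, with a median of 0.40. Over all kept probes 20.6% rose and 25.1% fell, and no test compared the list with other genes. Which tissue of the whole embryo gave the signal of these genes was not tested. pax6a, a regulator of eye development, read 288, 271 and 266% in control arrays and 373, 401 and 392% in morpholino arrays (0.50, adjusted p = 0.00031). sox1a, of a gene family required for gamma crystallin expression in mouse, read 157, 142 and 136% against 197, 221 and 225% (0.56, limma adjusted p = 0.0249). The other kept probe of sox1a gave 0.35 and did not pass. pitx3, also counted as higher, passed by its brightest probe (0.38), while its other kept probes gave 0.27 and 0.34 and did not pass. pax6b was the gene that fell, with 206, 215 and 224% against 130, 160 and 140% (-0.59, adjusted p = 0.04), while its other probe gave 0.05. Of 11 retina genes, 5 rose, 0 fell (0 by limma's unadjusted p under 0.05) and 6 did not pass, with a median of 0.31. six3b, a transcription factor of the forming eye, read 335, 358 and 324% against 545, 591 and 562% (0.74, adjusted p = 0.00123). rx3, which specifies the eye field, was above background on 2 control arrays and was at least 2.36-fold higher with morpholinos (1.37, limma adjusted p = 0.0304). That adjusted p was 0.0811 with quantile normalization and 0.143 with normexp. rx3 was kept only through the 24 h morpholino arrays, where it is high, so the filter itself favoured a rise for it. lhx2b measured 56.4, 55.8 and 45.7% against 68.5, 76.3 and 76.9% (0.49, adjusted p = 0.00174), but its other probes gave -0.68 to 0.03.

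**Figure D4:**
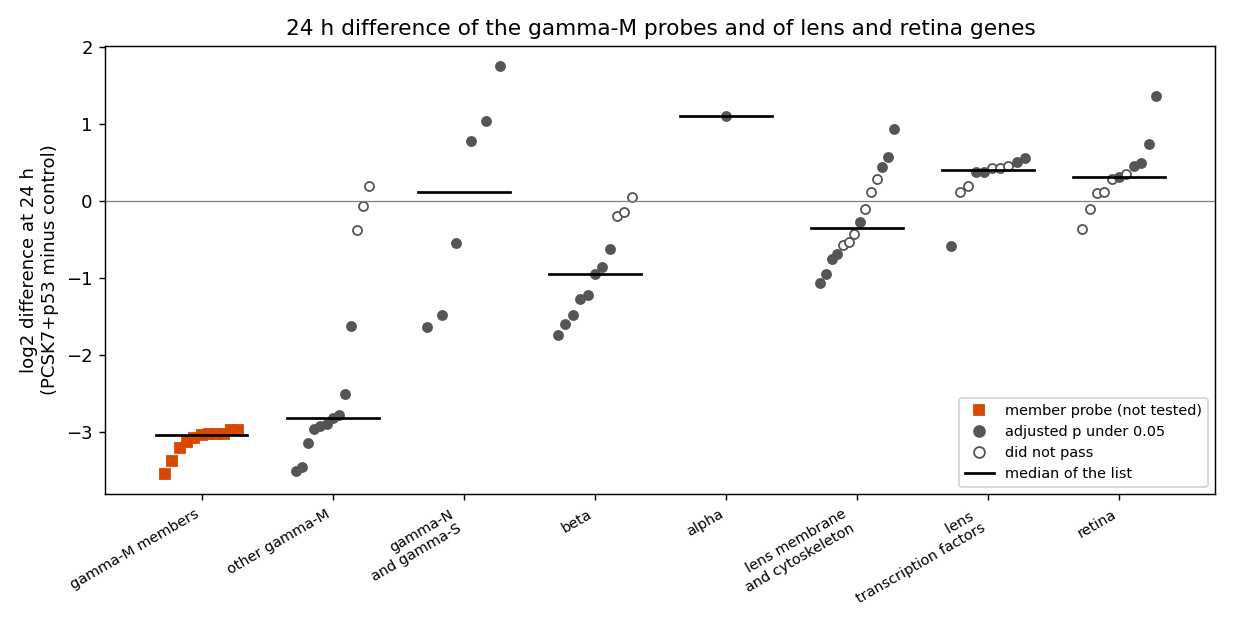
Log2 difference at 24 h (PCSK7 plus p53 morpholinos minus control) of the 11 kept member probes, the 13 other kept gamma-M probes and the measured genes of the 6 lists, with the list's median as a line. Squares are members, shown without a test and including crygm2b and crygm2c, which were at background in morpholino arrays; filled circles passed limma's adjusted p under 0.05. The members lie near -3 and 4 of the other gamma-M probes above -2 (crygmx -1.63, crygm2d21 -0.38, crygm4 -0.07 and crygmxl1 0.19), while the medians are -0.95 for beta crystallins and 0.31 for retina genes.

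Markers of other cell types were summed on each 24 h array, with no test. Summed over 18 lens fibre markers, control arrays held 948 to 1140% and morpholino arrays 312 to 520%, with 12 markers above background in control and 14 in morpholino embryos. The sum over lens epithelium and fate markers was 1246 to 1273% against 1418 to 1546%, and over retina markers 835 to 924% against 1156 to 1318%. Skeletal muscle markers summed to 29766 to 38790% against 22893 to 27324%, epidermis markers to 93304 to 107358% against 60246 to 72837%, erythroid markers to 34382 to 41468% against 31092 to 36098%, and neuron markers to 846 to 952% against 791 to 862%. The ranges of the 2 groups overlap for erythroid and neuron markers and not for the other lists. The fibre list holds cryba1b, crybb1 and crygn2, and by the probes described above these hold most of its sum. They read 477, 182 and 229% on control replicate 1 and 102, 37.7 and 47.9% on morpholino replicate 1. The list called lens membrane and cytoskeleton genes, most of which are also in the fibre list, gave 5 lower, 3 higher and 6 not passing of 14. Its 3 higher genes (grifin, dnase1l1l and caprin2) are not membrane or cytoskeleton genes. The fibre sum is therefore not a separate measure from those crystallins. By their brightest kept probes, pax6a, mafba, sox1b and pax6b hold most of the epithelium and fate sum. They read 288, 258, 252 and 206% on control replicate 1, where foxe3, pitx3 and prox1a read 20, 61.9 and 29.5%. Which tissue of the whole embryo gave these signals was not tested, so that sum is not read as an amount of lens epithelium. The part of the shifts in all these marker sums in the crystallin values was not tested.

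Genes outside the crystallin lists whose log2 values over the 12 arrays were most like the mean of the member probes were named by Pearson's r, as a description over arrays that share slides and scaling. The 10 closest were micos13 (0.994), atp5fa1 (0.994), uqcrc1 (0.992), aebp1b (0.992), ccdc85ca, atp6v1c1b, ube2v1, tmem37 and crkl (each 0.989) and ube2e3 (0.988). Over the 6 arrays of 24 h their r ran from 0.966 for ube2v1 to 0.995 for micos13. Their 24 h differences were smaller than those of the members: micos13 read 707, 632 and 665% in control arrays and 279, 323 and 363% in morpholino arrays (-1.06), and atp5fa1 differed by -0.31. tmem37 came nearest in size at 24 h, with 5.83, 4.49 and 4.34% against 0.939, 1.95 and 1.98% (-1.66).

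Whether the morpholino effect differed between 24 h and 6 h was tested for the 28 genes and gamma-M probes that are not members and were above background on all 12 arrays. In that test 19 passed, 9 lower and 10 higher at 24 h relative to 6 h. Over all kept probes 46.4% passed in either direction, 24.5% lower and 22% higher. That wider set includes probes at background on some arrays, so the shares are not of a like set. crygm2d14, which read 1.73, 1.95 and 2.15% in control arrays and 2.61, 1.55 and 1.36% in morpholino arrays at 6 h, had a 24 h effect 2.80 log2 units below its 6 h effect (-2.80, SE 0.49, limma adjusted p = 0.00118). The 24 h contrast that chose the members is part of this test, and the crygm2d14 probe may also read member transcripts. Its p-value is therefore not independent of the choice of the members.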

How the data were processed

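The deposited scanner files give the linear intensity of each spot, which Agilent Feature Extraction had corrected for background and spatial trends, per the file headers. The headers name version 10.7.1.1 on all control arrays and 10.7.3.1 on all morpholino arrays, the submitters' processing notes version 10.7.1. The authors' deposited table of processed intensity served as an alternative; how it was normalized was not stated. Spots of a probe were averaged without flagged spots (43527 of 43603 non-control probes complete). Each log2 signal was set against its array's 75th percentile. The filter on dim probes left 36684. RefSeq accessions were matched to a gene table of assembly GRCz12tu, which named 26854 probes for 14016 genes and left 15 ambiguous ones unnamed. limma 3.58.1 (R 4.3.3; lmFit, eBayes) tested both directions with 4 group means over 12 arrays, and Benjamini-Hochberg adjustment covered all kept probes; a call has an adjusted p under 0.05. In simulated data for the 6 h comparison (36684 probes), 141 of 200 probes changed by 1 log2 unit were recovered, with 11 false calls. Only those 200 probes were changed there, where 59.7% of kept probes passed in the real comparison. The simulation also held no slide or scan session, so its rates are not those of the real comparison. Named genes were all members, in each list the 3 with the largest 24 h change past the threshold (5 for other gamma-M probes), and the 10 most correlated genes. Some further genes were named to show the limits of a count. Members and lists were chosen with earlier results of these data known. Alternatives were other normalizations, filters, arrays in the fit, blocks and leaving out each array. Probe sequences and a genome were not used here. Columns without a sample numbered 0.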

Additional observations from a re-analysis of the deposited data

Results flagged for a closer look

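These 4 results are listed because the morpholino effect differed between 24 h and 6 h by a test of the difference itself (limma interaction contrast, all 12 arrays above background). For the gamma-M crystallin crygm2d14 the difference was -2.80 (SE 0.49, adjusted p = 0.00118), from -0.13 at 6 h to -2.93 at 24 h. For crygn2, a gamma-N crystallin, it was -1.97 (SE 0.27, adjusted p = 0.000283), from 0.33 to -1.64. For mipa, the fibre cell water channel, it was -1.14 (SE 0.31, adjusted p = 0.0131), from 0.19 to -0.95. For six3b, an eye field transcription factor, it was -0.97 (SE 0.18, adjusted p = 0.00184), from 1.71 to 0.74, so its effect was higher at both times. Such a difference passed for 46.4% of kept probes on the array, a wider set that includes probes at background on some arrays. The crygm2d14 probe may also read member transcripts, so its p-value is not independent of the choice of the members. Morpholino, slide and scan session cannot be told apart in these effects.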

How the results depend on the processing

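The replicate numbers did not pair the samples (correlations of same-numbered deviations -0.05 to 0.02), and the replicate block gave 1 member probe at 6 h, a member median of -3.05 at 24 h, 10 lower and 0 higher gamma-M probes outside the members, 14 higher and 16 lower lens and retina genes, 43 and 9 over time, and 19 differences of effects, each within 1.5 times of the value without the block. The planned normexp correction on mean signals was not run as written, since the files hold median signals and a few spots with very high local background distorted it; normexp with local background capped at the 99th percentile and an offset of 50 was chosen after seeing the data. The 1 member probe passing at 6 h became 2 without a filter on dim probes, 3 with only the arrays of the comparison and 9 with normexp; leaving out single arrays gave 1 to 2, with 2 without morpholino replicate 1. crygmxl2 at 6 h passed under all 14 settings run, and its log2 difference shrank to -0.79 with normexp. The member median at 24 h was -2.57 with normexp and -3.36 to -2.65 without single arrays. The member median from 6 h to 24 h in control embryos (6.64) was 3.46 with normexp, 5.85 in the authors' values, 7.33, 7.21 and 6.61 within slides 1, 2 and 3 (added after seeing the data), and 6.48 to 6.93 without single arrays. In morpholino embryos (3.97) it was 1.29 with normexp, 2.83 in the authors' values, 5.13 over only probes above background in the comparison, and 3.66 to 4.38 without single arrays. The 10 lower gamma-M probes outside the members became 18 without a filter, where most of the probes let in were at background in every group. The 0 higher became 0 to 1 without single arrays (1 without morpholino replicate 3). The 16 lens and retina genes higher at 24 h became 10 to 15 without single arrays, with 10 without control replicate 3 or morpholino replicate 3, and the 17 lower became 12 to 17. The 9 lower over time became 14 with normexp. The normexp offset alters the log2 differences of dim probes by arithmetic, and beyond that the cause of these moves was not tested. Signal close to background limits every 6 h value of the members.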
